A study of Mus musculus with 8 samples.

Results

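In 63 of 17212 named genes every sample of c-jun knockout B-lymphoid cells lay on 1 side of every wild-type sample, with the genotype means 0.4 or more apart on the log2 scale. The 63 are 0.366% of the genes considered. Of these genes, 54 (0.314%) were lower and 9 (0.0523%) were higher in knockout samples. Pja1, a ubiquitin ligase gene, and Slc35f2, a membrane transporter gene, led the lower side, and Osr2, a transcription factor gene, led the higher genes that were kept under every scaling tried. The members were chosen by these signals: the brightest probe set of each gene with 1 symbol was taken with its log2 values as deposited. Predicted genes, olfactory and vomeronasal receptors, microRNAs, Rik clones, Jun and Cdk6 were left out. The genotype difference is therefore the ground on which the genes were picked, and its size is described below without a test. With no limit on the size of the difference, 227 of the same genes (1.32%) separated the genotypes, 176 lower and 51 higher. Complete separation in either direction falls on 2 of the 70 ways to divide 8 samples into 4 and 4. For 17212 genes that share is 2.86%, or 491.77 genes, which is more than the 227 found. What follows describes which genes these are and how their values lie, and takes no significance from membership.

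The series concerns lymphoid leukemia driven by the BCR-ABL kinase and the role there of c-JUN at Cdk6. There were 4 c-jun knockout and 4 wild-type samples of B-lymphoid cells, all with the strain label SW129/C57BL/6J and each on 1 Affymetrix MoGene 1.0 ST array, a chip with probes along each transcript. The labels give no age, treatment, Cre driver, deleted exon or BCR-ABL status, and they do not say whether samples came from separate animals or cultures, so differences between samples of a genotype may be technical. Sample titles follow an RO and a D/F naming scheme. Replicates 1 and 2 of each genotype are RO samples and replicates 3 and 4 are D/F samples.

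Jun itself ranged from 6.46 to 7.02 (median 6.98) over the 4 knockout samples and from 8.77 to 10.55 (median 8.83) over the 4 wild-type samples, so its signals went with the labels. Whether its probes lie in the deleted part is unknown here. Of 9 measured B-lineage markers, 8 were above the array median in all 8 samples, and Ms4a1, which marks mature B cells, was below it in all of them. Array medians over all genes ran from 7.19 to 7.47 in knockout samples and from 7.24 to 7.72 in wild-type samples. The median genotype difference of all 19937 genes was -0.113, and it was -0.166 in the dimmer and -0.0282 in the brighter genes, divided at the median gene. In bulk samples, fewer cells of a type and less RNA per cell cannot be told apart.

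c-JUN is a basic leucine zipper protein that pairs with FOS, ATF and other JUN proteins to form AP-1, which binds a short palindromic DNA site in promoters and enhancers. AP-1 responds to growth factors, cytokines and stress, and in lymphoid cells it takes part in proliferation and survival. CDK6, the kinase named in the title of the series, drives G1 progression with D-type cyclins. A gene that differs between c-jun knockout and wild-type cells may lie many steps away from AP-1.

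**Figure D1:**
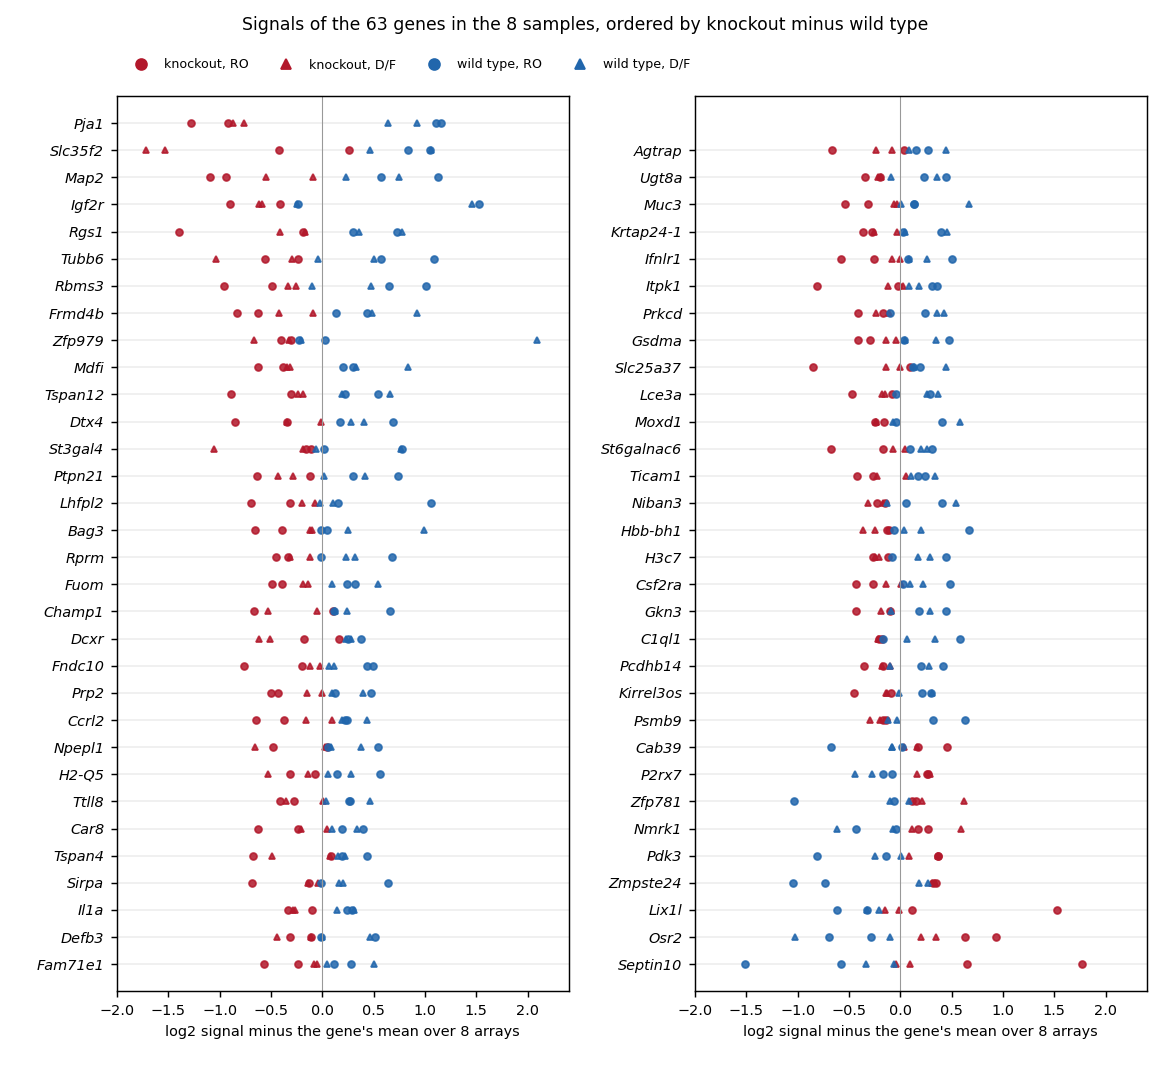
Each row is 1 gene and each point 1 sample, as log2 signal minus the mean of that gene over the 8 arrays; red points are knockout, blue points wild type, circles RO and triangles D/F samples. In the rows from Pja1 to Psmb9 the red points lie to the left of the blue ones, and in the 9 rows from Cab39 to Septin10 to the right; the gap between the colours is 1.40 for Pja1 and under 0.1 for 36 of the 54 lower genes.

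Most of the separations were narrow. The gap between the nearest knockout and wild-type samples was under 0.1 for 36 of the 54 lower genes and 6 of the 9 higher ones, and over 0.2 for 8 and 2. A genotype difference of at least 1.0 was present in 7 lower and 2 higher genes. Another 27 lower and 2 higher genes had less than 0.5. In the plot of all members by sample, Pja1 stands out by a gap of 1.40 between its highest knockout and its lowest wild-type signal.

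The balance of lower and higher genes that met the rule depended on how the arrays were scaled. After each array was centred on its median, the same rule gave 16 lower and 41 higher genes, and after quantile normalization 24 and 18, against 54 and 9 with the values as deposited. The share of lower genes was thus 28.1%, 57.1% and 85.7%. Many of the genes found after rescaling were outside the 63. With median centring these were 5 of the 16 lower and 36 of the 41 higher genes. With quantile normalization they were 6 of the 24 and 11 of the 18. The differences of the members themselves kept their sign under both rescalings. Of the 63 genes, 15 met the rule under all 3 scalings: Pja1, Slc35f2, Map2, Rgs1, Tubb6, Frmd4b, Mdfi, Dtx4, Rprm and Fuom on the lower side, and Osr2, Pdk3, Nmrk1, Zfp781 and P2rx7 on the higher side. The other 48 met it as deposited and lost it under at least 1 rescaling. Median centring raises the difference of every gene alike by 0.17, so a gene between -0.17 and 0 takes the other sign by construction. A mean signal under that of the median gene was present in 30 members (47.6%), beside 44.4% of the genes considered. All 30 were lower, and 4 of them were among the 15. The 33 brighter members gave the other 11.

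**Figure D2:**
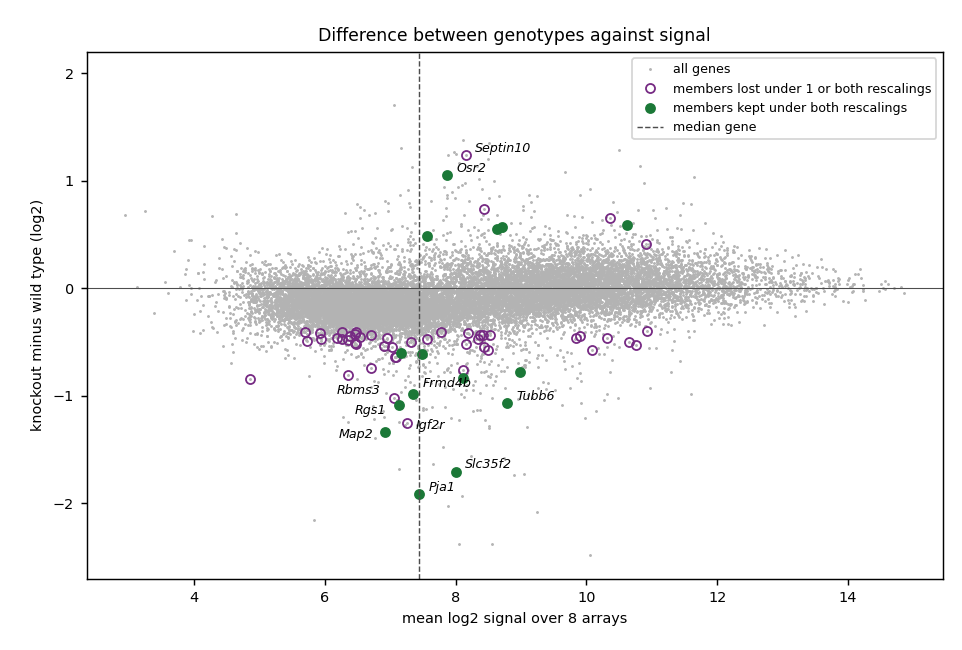
Knockout minus wild-type difference (log2) against the mean log2 signal over 8 arrays; grey points are all 19937 genes, open circles the 48 members lost under 1 or both rescalings, filled circles the 15 members kept, and the dashed line the median gene. The grey cloud left of the line lies below 0, with a median of -0.166, and the 30 dim members lie at its lower edge.

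Leaving out arrays gave a related picture. A difference of 0.4 or more remained whichever single array was left out for 31 of the 63 genes, 25 lower and 6 higher, and for 14 of the 15 that met the rule under all scalings. Zfp781 was the exception, with 0.30 without wild-type replicate 2. Among knockout samples, replicate 2, which had the lowest array median (7.19), was the lowest in 29 of the 54 lower genes (53.7%), beside 45.6% of all genes. Among wild-type samples, replicate 1, which had the highest median (7.72), was the highest in 26 of the 54 (48.1%), beside 39.3% of all genes. Wild-type replicate 4 was the lowest wild-type sample in 21 of the 54 (38.9%), beside 55.2% of all genes. Single arrays moved the size of the set widely. Without wild-type replicate 4 the rule gave 719 lower and 95 higher genes. Without wild-type replicates 1, 2 and 3 in turn it gave 54 and 22, 166 and 61, and 80 and 34. Without knockout replicates 1 to 4 in turn it gave 121 and 45, 69 and 20, 167 and 30, and 198 and 54. Without wild-type replicates 1 and 3, the arrays of highest median, it gave 112 lower and 141 higher genes, a setting chosen after the data were seen. Of the present members, 30 lower and 8 higher genes were still included. With fewer samples separation is easier, so every such count starts from a higher base.

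**Figure D3:**
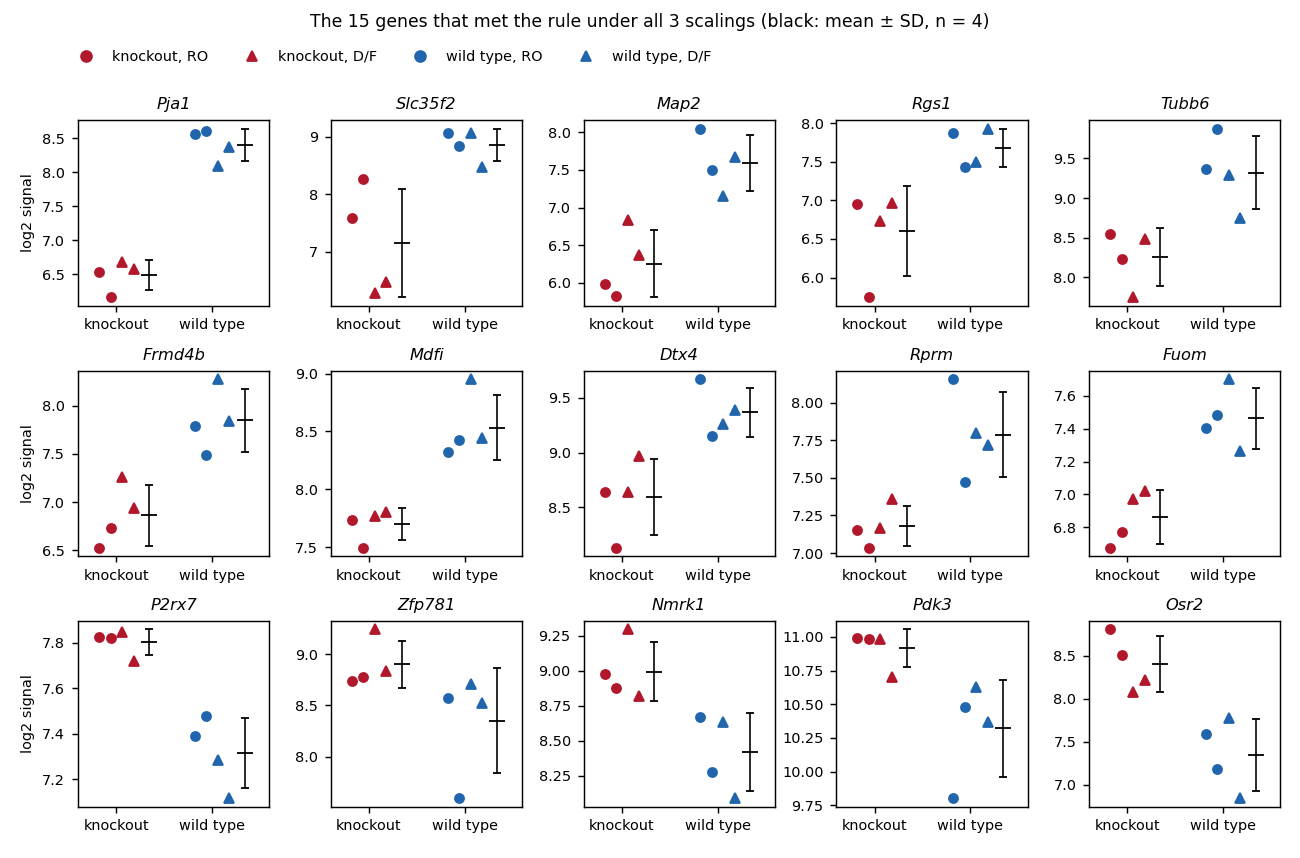
Log2 signals of the 15 genes that met the rule under all 3 scalings, by genotype; each point is 1 sample (circles RO, triangles D/F) and black bars show mean ± SD of 4 samples. In the top 2 rows the knockout samples lie below the wild-type samples, with the widest gap for Pja1, and in the bottom row they lie above them.

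Pja1 encodes praja, a RING-type E3 ligase that marks proteins with ubiquitin for degradation. From replicate 1 to 4, the knockout samples had log2 signals of 6.53, 6.17, 6.69 and 6.58, and the wild-type samples had 8.55, 8.61, 8.09 and 8.37, an order used for every gene below. The 4 knockout values lie in a narrow band far under the wild-type band, which was as narrow. The means were 6.49 ± 0.23 (SD, n = 4) and 8.40 ± 0.23 (SD, n = 4), a difference of -1.92, and it was between -1.81 and -2.02 in sets of 7 arrays. Its relative Pja2 had a difference of 0.09, with values that overlapped between genotypes.

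The gene lies on the X chromosome, and the samples were not all of 1 sex pattern. Xist, the RNA that silences an X chromosome in female cells, was between 11.16 and 11.93 in 4 samples (replicates 1 and 3 of the knockout, 3 and 4 of the wild type) and between 5.90 and 6.16 in the others. Eif2s3y, on the Y chromosome, was between 9.29 and 10.22 in replicate 2 of the knockout and the RO samples of the wild type, and at 5.30 or less elsewhere, so knockout replicate 4 was low for both. Each genotype thus held Xist-high and Xist-low samples. In knockout samples each naming scheme held both kinds. In wild-type samples both RO samples were Xist-low and both D/F samples Xist-high, so scheme and sex pattern cannot be told apart there. Pja1 was at 6.53 and 6.69 in the Xist-high knockout samples and at 6.17 and 6.58 in the Xist-low ones. In wild-type samples it was at 8.09 and 8.37 with high Xist and at 8.55 and 8.61 with low Xist, so its separation was present in both kinds of sample.

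Slc35f2, a multi-pass transporter of the solute carrier 35 family, was at 7.58, 8.27, 6.29 and 6.47 in knockout samples and at 9.06, 8.84, 9.07 and 8.47 in wild-type samples. The knockout samples formed 2 levels, with both D/F samples well under both RO samples, while the wild-type samples lay close together. The means were 7.15 ± 0.94 (SD, n = 4) and 8.86 ± 0.28 (SD, n = 4). The difference of -1.70 split into -1.02 for RO and -2.39 for D/F samples. Among 26 other measured Slc35 genes, 0 separated the genotypes, beside 1.29% of all genes that did so by any amount. At that share 0 is the usual count in a list of this size or smaller. The differences of the 26 ran from -0.25 (Slc35c1) to 0.36 (Slc35a3). Of the 26, 11 were close enough to 0 to take the other sign under 1 or both rescalings.

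Several lower members form or organise the cytoskeleton. Map2, which binds and stabilises microtubules and is best known in dendrites, was at 5.99, 5.83, 6.83 and 6.37 in knockout and at 8.05, 7.50, 7.15 and 7.68 in wild-type samples. Here the RO knockout samples were the lowest, the reverse of Slc35f2, and the D/F groups came within 0.32 of each other. Its difference was -1.34, larger among RO (-1.86) than among D/F samples (-0.81). Of 10 other measured microtubule-associated protein genes of that symbol family, 0 separated the genotypes, beside 1.29% of all genes. Map7 had 0.41 and Map1a -0.41.

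Tubb6, a beta-tubulin isotype, was at 8.55, 8.23, 7.75 and 8.49 in knockout and at 9.36, 9.88, 9.30 and 8.75 in wild-type samples. Knockout replicate 3 was the lowest and wild-type replicate 2 the highest, and wild-type replicate 4 came within 0.20 of the knockout samples. The difference of -1.07 was one of the larger ones among the brighter members. Frmd4b, a scaffold with a FERM domain that links membrane lipids and junctions to the actin cortex, was at 6.53, 6.73, 7.26 and 6.93 against 7.79, 7.49, 8.28 and 7.84. Its difference of -0.99 was almost the same in RO (-1.01) and D/F samples (-0.96). Within both genotypes replicate 3 was the highest sample of this gene. Of 6 other measured Frmd genes, 0 separated the genotypes, beside 1.29% of all genes. Frmd6 had 0.66 in the other direction and Frmd4a, the nearest relative, -0.26. Ptpn21, a phosphatase that carries a FERM domain, had -0.74, and Ttll8, which adds glycine to tubulin, -0.52. Septin10, a subunit of septin filaments, lay on the higher side and is described with the uneven members. In all, 5 of 6 members of this role were lower, beside 85.7% lower genes in the whole set, and 3 of the 6 met the rule under all scalings.

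Rgs1 speeds the shut-off of G-protein signals and dampens the response of B cells to chemokines. It was at 6.95, 5.75, 6.73 and 6.97 in knockout and at 7.87, 7.44, 7.50 and 7.92 in wild-type samples. Knockout replicate 2 was more than 0.9 under the others, and without it the difference was -0.80 in place of -1.08. The remaining 3 knockout samples still lay in a tight group under the wild-type samples.

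Mdfi binds MyoD-family and other transcription factors and holds them inactive. Its signals were 7.74, 7.50, 7.77 and 7.80 in knockout against 8.32, 8.42, 8.95 and 8.44 in wild-type samples. The gap of 0.51 was the widest after that of Pja1, and the difference was -0.83. Mdfic, its relative, had -0.68 with overlapping samples. Dtx4, a deltex-type ubiquitin ligase linked to NOTCH signalling, was at 8.64, 8.13, 8.64 and 8.97 against 9.67, 9.15, 9.26 and 9.39 (difference -0.78). Its knockout SD was 0.35 and its gap 0.19.

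Rprm, a p53-induced gene whose product halts the cell cycle, was at 7.15, 7.04, 7.17 and 7.36 in knockout and at 8.16, 7.47, 7.80 and 7.72 in wild-type samples (difference -0.61). Wild-type replicate 1 stood above the rest, and without it the difference was -0.48. Fuom, a mutarotase that interconverts forms of the sugar fucose, was at 6.68, 6.77, 6.97 and 7.02 against 7.40, 7.49, 7.70 and 7.26 (difference -0.60). The 4 samples of each genotype covered a range of under 0.5 for Fuom, and all of its knockout signals were under their array medians. All 4 knockout signals lay under the array median for 32 of the 54 lower genes, where the size of a difference is uncertain.

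On the higher side, Osr2 encodes an odd-skipped zinc-finger factor known from limb, palate and kidney development. Its signals were 8.80, 8.51, 8.07 and 8.22 in knockout and 7.59, 7.18, 7.78 and 6.84 in wild-type samples, so every knockout sample was at least 0.30 above every wild-type sample. The means were 8.40 ± 0.32 (SD, n = 4) and 7.35 ± 0.42 (SD, n = 4). The overall difference, 1.05, comprised 1.27 for RO and 0.84 for D/F samples. Osr1 had -0.28 and overlapping samples.

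Pdk3, a kinase that switches off pyruvate dehydrogenase and so slows entry of pyruvate into the mitochondrial cycle, was at 10.99, 10.98, 10.98 and 10.70 in knockout and at 9.80, 10.48, 10.63 and 10.37 in wild-type samples. Knockout replicates 1 to 3 were almost equal, and wild-type replicate 1 was clearly the lowest sample. Without that sample the difference was 0.42 in place of 0.59. Pdk3 is on the X chromosome as well. The other 3 kinases of the family ran from -0.20 (Pdk4) to 0.02 (Pdk1), and 0 of them separated the genotypes, beside 1.29% of all genes. Pdk1 and Pdk2 were close enough to 0 for a rescaling to turn their sign.

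Nmrk1, a kinase that acts on nicotinamide riboside on the route to NAD, was at 8.98, 8.88, 9.30 and 8.82 against 8.67, 8.28, 8.64 and 8.09 (difference 0.57). P2rx7, an ion channel that ATP outside the cell opens, was at 7.82, 7.82, 7.84 and 7.72 against 7.39, 7.48, 7.29 and 7.12 (difference 0.48). Its knockout SD was 0.06, and its gap of 0.24 was one of the 2 wider than 0.2 on this side. Zfp781, a zinc-finger gene, was at 8.74, 8.78, 9.24 and 8.84 against 8.57, 7.59, 8.71 and 8.53. Wild-type replicate 2 stood far below the others, and the difference of 0.55 was 0.30 without it.

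The promoter windows of Slc35f2 and Map2 are shown because these genes, which had the largest differences among members with promoter sequence on hand, have opposite kinds of promoter. The sequences are those of RefSeq for the mouse build GRCm38.p6, 5′ to 3′ on the strand of the gene, from 250 bases before to 50 after the start of the gene, with CpG dinucleotides in capitals. The Slc35f2 window (chr9:53771285-53771584, plus strand) holds 4 CpG and the Map2 window (chr1:66175079-66175378, plus strand) holds 37.
Slc35f2: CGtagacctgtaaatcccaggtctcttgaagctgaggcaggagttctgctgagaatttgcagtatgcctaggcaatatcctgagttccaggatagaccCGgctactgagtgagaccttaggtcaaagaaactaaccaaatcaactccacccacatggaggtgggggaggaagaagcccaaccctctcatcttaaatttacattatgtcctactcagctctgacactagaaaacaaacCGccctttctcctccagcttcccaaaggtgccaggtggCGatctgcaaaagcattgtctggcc
Map2: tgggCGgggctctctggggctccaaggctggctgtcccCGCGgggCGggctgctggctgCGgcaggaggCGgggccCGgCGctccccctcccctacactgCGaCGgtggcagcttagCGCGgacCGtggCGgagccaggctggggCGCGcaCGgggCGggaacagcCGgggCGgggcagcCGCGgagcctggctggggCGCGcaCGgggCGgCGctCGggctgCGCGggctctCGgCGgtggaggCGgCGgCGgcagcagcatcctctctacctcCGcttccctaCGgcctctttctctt
CpG sites are where cytosine methylation occurs, and promoters rich in them are common at genes active in many tissues. Promoter sequence was on hand for 47 of the 63 members, with 59 windows in all. The median window held 10 CpG among these, beside 16 among 17103 windows of the genes considered, while the median GC content was 60.0% and 58.7%. The medians were 9.5 CpG in 50 windows of lower genes and 15 in 9 windows of higher genes. The windows of 1 gene can overlap and the set was not matched for signal, so these medians are a description.

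The AP-1 site was searched for in the same windows as TGANTCA, where N is any base. That palindrome reads the same on both strands. The related site TGACGTCA, a palindrome too, binds JUN with ATF partners, holds no TGANTCA and was searched for as well. TGANTCA was in 5 of 59 member windows (8.47%), in 7.81% of all 32851 windows and in 6.41% of those of the genes considered. TGACGTCA was in 2 of the 59 (3.39%), in 1.79% of all and in 2.51% of those considered. The shares were thus close to the background. Frmd4b (chr6:97459237-97459536, minus strand) and P2rx7 (chr5:122643677-122643976, plus strand), which lie on opposite sides of the set, are shown with the match in capitals.
Frmd4b: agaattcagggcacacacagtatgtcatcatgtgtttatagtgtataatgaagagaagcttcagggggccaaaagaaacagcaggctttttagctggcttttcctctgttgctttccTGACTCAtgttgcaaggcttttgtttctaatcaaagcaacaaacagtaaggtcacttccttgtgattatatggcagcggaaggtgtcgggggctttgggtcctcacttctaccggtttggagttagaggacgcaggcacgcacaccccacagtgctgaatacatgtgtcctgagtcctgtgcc
P2rx7: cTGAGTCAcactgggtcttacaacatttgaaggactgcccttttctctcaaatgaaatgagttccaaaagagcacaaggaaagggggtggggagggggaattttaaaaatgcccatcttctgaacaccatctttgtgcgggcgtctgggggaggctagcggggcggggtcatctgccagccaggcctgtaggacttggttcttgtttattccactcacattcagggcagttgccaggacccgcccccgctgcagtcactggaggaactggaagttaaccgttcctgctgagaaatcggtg
The Frmd4b match lies in 1 of 3 windows of that gene, at position -133 from the start site, and the P2rx7 match in 1 of 2, at position -249. The other TGANTCA matches, shown with their flanks, were in Bag3, Il1a and Tspan4, and the TGACGTCA matches were in Csf2ra and Fam71e1.
Bag3: ttatagcctaTGACTCAgggcggagct
Il1a: cagagaagccTGACTCAgacttaagtc
Tspan4: tgggggcctgTGAGTCActgtg
Csf2ra: ccgcccccggTGACGTCAccgggcccca
Fam71e1: gtgacgtcgtTGACGTCAcggaacgccg
Of the 7 genes with a match, 6 were lower in knockout samples and P2rx7 was higher, beside 85.7% lower genes in the whole set. A match shows only that the letters are there, and most sites that AP-1 uses in cells lie outside windows of this size.

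**Figure D4:**
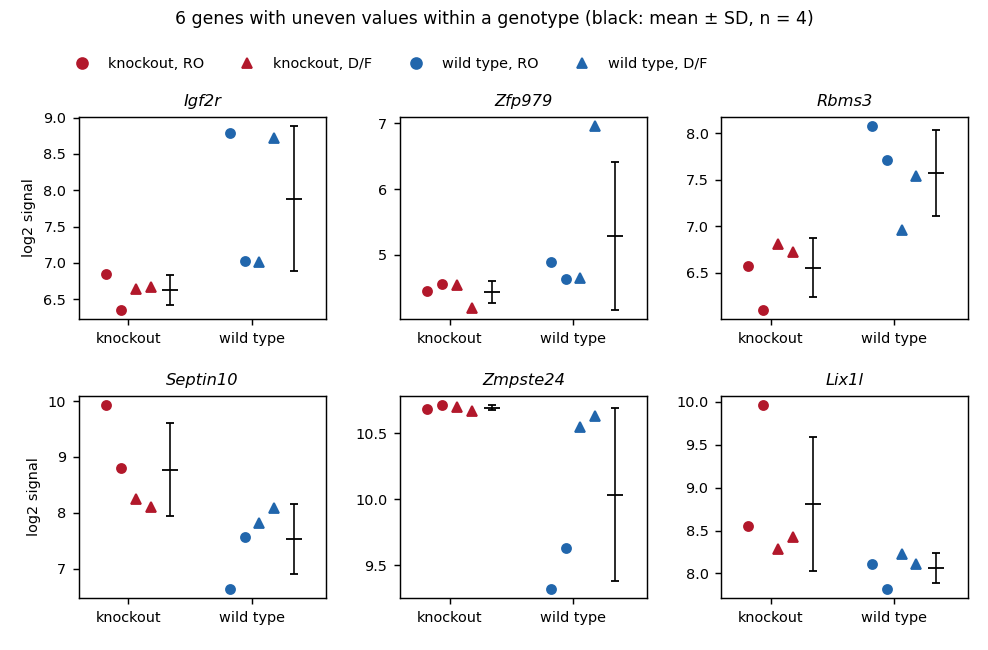
Log2 signals of 6 members whose values were uneven within a genotype; points are samples (circles RO, triangles D/F) and black bars mean ± SD of 4 samples. In each panel 1 or 2 samples stand away from the rest of their genotype, such as wild-type replicates 1 and 4 for Igf2r and wild-type replicate 4 for Zfp979.

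For another group of members the separation was complete but the values were uneven within a genotype. Igf2r, the receptor that carries lysosomal enzymes and clears the growth factor IGF2, was at 6.84, 6.35, 6.64 and 6.67 in knockout and at 8.78, 7.02, 7.01 and 8.71 in wild-type samples. The wild-type samples fell into 2 levels that cut across the naming schemes. The lower 2 were within 0.2 of the highest knockout sample, and wild-type replicates 1 and 4 stood far above them, with a mean difference of -1.25 over all samples. Zfp979 was between 4.20 and 4.56 in knockout samples and at 4.89, 4.64, 4.65 and 6.96 in wild-type samples. Its difference of -0.85 was -0.29 without wild-type replicate 4. The signal was among the dimmest on the array, and Zfp979 belongs to a family of zinc-finger genes with closely similar copies, whose share in the signal was not tested.

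Rbms3, which binds RNA, was at 6.58, 6.10, 6.81 and 6.73 in knockout and at 8.08, 7.71, 6.96 and 7.54 in wild-type samples. Its RO samples differed by -1.55 and its D/F samples by -0.48. Septin10 had the largest difference of the higher genes, 1.24, and one of the narrowest gaps, 0.02. Its signals were 9.93, 8.81, 8.25 and 8.11 in knockout against 6.64, 7.58, 7.82 and 8.09 in wild-type samples, so the D/F samples of the genotypes nearly met. Its RO samples differed by 2.26 and its D/F samples by 0.22.

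Zmpste24, the protease that trims prelamin A to its mature form, was between 10.67 and 10.71 in all knockout samples. Its wild-type samples were at 9.32 and 9.63 in the RO pair and at 10.55 and 10.63 in the D/F pair, so the overall 0.66 combined 1.22 among RO with 0.09 among D/F samples. A dimmer probe set of the same gene had -0.05. Lix1l was at 8.55, 9.96, 8.29 and 8.42 against 8.11, 7.82, 8.23 and 8.11, and its difference of 0.74 was 0.35 without knockout replicate 2. Cab39, which activates the kinase LKB1 as part of a scaffold, was at 11.09, 11.37, 10.95 and 11.08 against 10.23, 10.93, 10.83 and 10.83. Its difference of 0.41 was 0.25 without wild-type replicate 1, and a dimmer probe set had 0.03. Zmpste24 and Cab39 were the only members with more than 1 single-symbol probe set, and in neither did the other probe set show the difference.

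Among cytokine, chemokine and innate signalling genes 9 of 10 members were lower and P2rx7 was higher, with a median of -0.47. The whole set held 85.7% lower genes, a share that depends on the scaling, and this role was close to it. Rgs1 and P2rx7 are described above and were the 2 that met the rule under all scalings. Ccrl2, an atypical receptor that binds the chemoattractant chemerin, had -0.54, with all wild-type samples between 7.09 and 7.34 and the knockout samples under them, down to 6.25. Sirpa, an inhibitory receptor for CD47, had -0.50, with knockout replicate 2 lowest, and Il1a, an alarm cytokine, had -0.49 between low signals of 5.40 to 5.63 and 5.87 to 6.04. The SD of Il1a was 0.10 in knockout and 0.07 in wild-type samples.

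Defb3, a defensin peptide gene, had -0.48. Ifnlr1, the receptor of lambda interferons, had -0.46. Prkcd, a protein kinase C form that restrains B-cell activation, was bright, with 9.90 to 10.20 in knockout and 10.20 to 10.74 in wild-type samples, groups that met within 0.01. Ticam1, the adaptor TRIF of toll-like receptors, had -0.43, and Csf2ra, a receptor chain for GM-CSF, had -0.41. Some genes of this role are also active in myeloid cells. Of 10 measured myeloid markers, 0 separated the genotypes, beside 1.29% of all genes, and 8 were lower on average. Their summed level (log2 of the summed linear signal) ran from 10.4 to 11.3 in knockout and from 10.3 to 11.6 in wild-type samples, and Mpo, Elane and Csf1r were at 7.62 or less in every sample. Lyz2 was higher, at 10.63, 10.64, 9.24 and 7.44 in knockout and at 8.33, 8.66, 9.93 and 8.35 in wild-type samples. Fcgr3 reached 10.09 in wild-type replicate 3. The part of myeloid cells in these differences was not tested.

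Beside 1.29% of all genes, 0 of 9 T and NK, 7 erythroid and megakaryocyte or 10 stromal markers separated the genotypes. Their median differences were -0.16, -0.20 and -0.20, beside -0.166 for dim genes in general. Of the T and NK markers, 7 were below the array median in every sample, while Klrb1c was at 10.54 in wild-type replicate 3 and 8.93 in knockout replicate 4. Their part in the differences of members was not tested.

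Both antigen-presentation members were lower, beside 85.7% lower genes in the whole set. H2-Q5, a class I histocompatibility gene, was at 7.85, 8.10, 8.03 and 7.64 in knockout and at 8.73, 8.31, 8.44 and 8.22 in wild-type samples (difference -0.52). It has close relatives in the same gene cluster, and signal shared with them was not tested. Psmb9, a catalytic subunit of the immunoproteasome, was at 10.76, 10.79, 10.64 and 10.74 against 11.56, 11.25, 10.82 and 10.90. Its knockout samples were tightly grouped, and its D/F wild-type samples lay within 0.3 of them.

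Enzymes and transporters made up the largest role, with 9 of 11 metabolic members lower and both transporter members lower. Beside them stand 85.7% lower genes in the whole set. Sugar-modifying enzymes were among the metabolic members. St3gal4, which caps glycans with sialic acid, was at 7.94, 8.00, 7.92 and 7.05 in knockout and at 8.89, 8.12, 8.88 and 8.05 in wild-type samples (difference -0.76). Its wild-type samples fell into a high and a low pair, each with 1 RO and 1 D/F sample, and the low pair lay close to knockout replicates 1 to 3. St6galnac6, another sialyltransferase, had -0.43, with 7.85 to 8.57 against 8.62 to 8.83. Ugt8a, which makes the myelin lipid galactosylceramide, had -0.47 at dim signals.

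Dcxr, a reductase of xylulose and dicarbonyls, was at 8.32, 8.66, 7.87 and 7.99 against 8.87, 8.75, 8.77 and 8.72, a wild-type SD of 0.07 beside a knockout SD of 0.35. Npepl1, an aminopeptidase-like protein, had -0.53, and Itpk1, a kinase of inositol phosphates, had -0.46, or -0.27 without knockout replicate 1. Car8, a carbonic anhydrase relative without the enzyme activity, had -0.51, and Moxd1, a monooxygenase, -0.44. Slc25a37, the mitoferrin that brings iron into mitochondria, had -0.45, or -0.24 without knockout replicate 2. Of these genes, Npepl1, Itpk1 and Slc25a37 were brighter than 81.2% of genes or more, while Ugt8a, Car8 and Moxd1 were dim.

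A further group of 5 membrane proteins, placed apart from the immune receptors and P2rx7 above, was lower, beside 85.7% lower genes in the whole set. Besides Igf2r these were Tspan12, a tetraspanin of the Norrin receptor complex (-0.81, with signals of 5.46 to 6.17 against 6.55 to 7.02), Lhfpl2 (-0.64), Tspan4 (-0.50) and Agtrap, a protein that binds the angiotensin receptor (-0.47). Lhfpl2 had -1.11 among RO and -0.17 among D/F samples, with knockout replicate 2 lowest at 6.38 and wild-type replicate 2 highest at 8.14. Bag3, a co-chaperone that guides damaged proteins to autophagy, had -0.64, with wild-type replicate 4 at 8.06 and the others at 7.06 to 7.32. Champ1, a zinc-finger protein of chromosome alignment, had -0.57 with knockout and wild-type samples that nearly touched. H3c7, a replication-dependent histone gene with near-identical copies, had -0.42 at signals of 5.66 to 6.36, and the share of other copies was not tested.

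The remaining lower members have products known from epithelia, nervous tissue or fetal red cells. There were 8 of them: Gsdma, Muc3, Krtap24-1, Lce3a, Gkn3, C1ql1, Pcdhb14 and Hbb-bh1. Their differences lay between -0.47 and -0.40, a narrower range than that of any other role with more than 2 members. Of the 8, 7 were dimmer than the median gene and 0 met the rule under all scalings. Fndc10, Prp2, Fam71e1, Niban3 and Kirrel3os, from -0.55 to -0.40, met it under all scalings in 0 of 5 cases as well.

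At the edge of the rule the values were nearly continuous. Just inside it were Psmb9, Kirrel3os and Pcdhb14, each with -0.40, and just outside Bcl3, Lrrfip1 and Rwdd1, with -0.399, -0.396 and -0.393. On the higher side Cab39 (0.41), P2rx7 (0.48) and Zfp781 (0.55) were the innermost members, and the cytochrome oxidase subunit gene Cox7a2, the histone gene H2ac4 and the small RNA gene Rny1, with 0.394, 0.394 and 0.387, lay just outside. Besides Jun and Cdk6, 12 genes that met the size and separation limits were left out by symbol, 11 of them lower and 1 higher. With no symbol left out, 77 of 19937 genes (0.386%) met the rule, and 258 (1.29%) separated the genotypes by any amount.

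**Figure D5:**
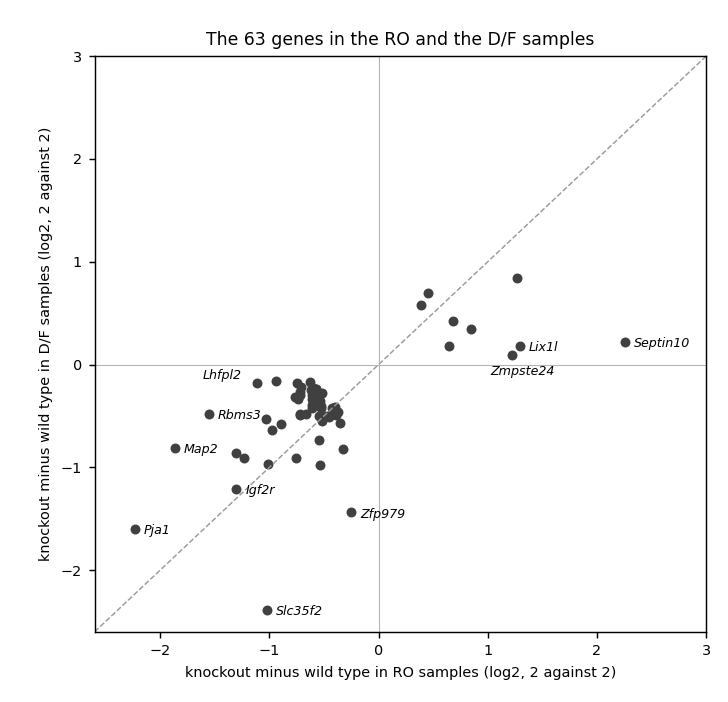
Knockout minus wild-type difference (log2) of each of the 63 genes in RO samples (horizontal axis) and D/F samples (vertical axis), 2 samples against 2 in each; the dashed line marks equal differences. All genes lie in the quadrants of like sign, as the rule requires, with Slc35f2 and Zfp979 larger in D/F samples and Septin10, Map2, Rbms3, Lix1l and Zmpste24 larger in RO samples.

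The naming schemes are a division of the samples that the rule did not use, although it favours genes with little spread inside a genotype. In wild-type samples this division is also that of Xist-low and Xist-high samples. Among those samples a difference between the schemes therefore cannot be told apart from the sex pattern. Comparisons that include them, such as that of the genotype differences between schemes, carry this limit in part. In knockout samples each scheme held both kinds. The genotype difference was larger in RO samples for 39 of the 54 lower genes and 7 of the 9 higher ones (72.2% and 77.8%). Among the genes considered that were lower in both schemes that share was 79.9%, and among those higher in both it was 62.9%. The median difference of all genes was -0.25 among RO and 0.01 among D/F samples. For the lower genes the median difference was -0.61 among RO and -0.45 among D/F samples. For the higher genes the medians were 0.84 and 0.35. In limma fits over all genes with Benjamini-Hochberg adjustment, the interaction of genotype and naming scheme was called for 6 of 19937 genes (0.0301%) and for 0 members, whose smallest adjusted p was 0.669. At an unadjusted p under 0.05 there were 1073 genes (5.38%), among them 5 members. These 5 had adjusted p-values from 0.669 to 0.716. The interaction, the D/F difference minus the RO difference, was -1.36 (SE 0.42) for Slc35f2, 1.05 (SE 0.42) for Map2, 1.07 (SE 0.41) for Rbms3, -1.13 (SE 0.27) for Zmpste24 and -2.04 (SE 0.55) for Septin10. The scheme difference itself, D/F against RO, was called for 4 genes (0.0201%) and for 0 members, of which 5 had an unadjusted p under 0.05, beside 622 of all genes (3.12%). Among members it was 38 times upward and 25 times downward, with a median of 0.02, beside 0.05 for all genes.

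Members lay on 20 chromosomes, with no more than 6 on any. Chromosome 4, which holds Jun, had those 6 (9.52% of the members and 6.16% of the genes considered): Car8, Zmpste24, Ifnlr1, Zfp979, Agtrap and Fndc10. The member nearest to Jun, Zmpste24, was 246 measured genes away. A Rik clone and a microRNA left out by symbol met the other limits, were lower and lay nearer. They had 131 and 240 measured genes between them and Jun. Chromosomes 2, 7, 9 and 17 had 5 members each (7.94%), beside 7.85%, 7.97%, 5.61% and 4.72% of the genes considered. St3gal4 and Kirrel3os were neighbours on chromosome 9 with 0 measured genes between them, and both were lower. Il1a and Sirpa on chromosome 2 had 3 between them, Zfp979 and Agtrap on chromosome 4 had 10, and Pdk3 and Pja1 on the X chromosome, which differed in opposite directions, had 25.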

How the data were processed

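Each of the 8 samples was measured on 1 array from 200 ng of RNA, and the deposited values are log2 signals of 34760 probe sets. The authors' signals came from MAS5, per the submitters' processing notes; that the scale is log2 was taken from the values, whose linear 2% trimmed mean is the same on every array. How MAS5 was run on this chip, its settings included, was not stated in those notes as used here. Array medians differed although this mean was the same. The median genotype difference was -0.166 in the dimmer and -0.0282 in the brighter genes. The cause of either was not tested.

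Probe sets with 1 symbol (21640) gave 19937 genes, each by its brightest probe set, and 954 genes had more than 1. Genotypes came from the sample labels. Genes were named by the membership rule, with every member accounted for, and their nearest relatives by symbol family. Members, roles and lists were chosen with earlier results of these data known. No genotype test was run, because genotype chose the members. The naming schemes, which may not be a batch, were tested with limma 3.58.1 in R 4.3.3 (moderated fit with a mean-variance trend, genotype plus scheme, then with their interaction), adjusted by Benjamini-Hochberg over all genes at 0.05, and the script was tested on simulated data. Alternatives were median centring, quantile normalization, the mean of probe sets, brighter genes only, other thresholds, no trend and each sample left out. The fits have 5 and 4 residual degrees of freedom, and the number of arrays limits precision. Promoter sequences are from RefSeq (GRCm38.p6), and other coordinates are not printed, since no source used here names the build of the array annotation.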

Additional observations from a re-analysis of the deposited data

Results flagged for a closer look

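In 13 of 126 sets of 4 samples (63 genes in 2 genotypes) the highest or lowest sample passed Dixon's 95% limit. The limit concerns its distance from the nearest of the others, relative to the range of the 4. In unselected, independent sets about 1 in 20, or 6.3 here, would pass. These sets were chosen by the same values and share the same arrays, so the 13 cannot be judged against that number. Of the 13 samples, 9 were knockout and 4 wild type, and knockout replicate 2 gave 5 of them. Wild-type samples that stood apart were replicate 4 for Zfp979, at 6.96 with the others at 4.64 to 4.89, replicate 2 for Lhfpl2, at 8.14 with the others at 7.06 to 7.23, replicate 2 for Zfp781, at 7.59 with the others at 8.53 to 8.71, and replicate 1 for Cab39, at 10.23 with the others at 10.83 to 10.93. Knockout replicate 2 stood apart for Sirpa (6.64, others 7.18 to 7.29), Ugt8a (5.92, others 6.05 to 6.07), C1ql1 (7.60, others at 7.56), Kirrel3os (5.81, others 6.12 to 6.17) and Lix1l (9.96, others 8.29 to 8.55). Knockout replicate 1 did so for Tspan12 (5.46, others 6.06 to 6.17) and Moxd1 (6.54, others 6.46 to 6.47), and knockout replicate 4 for St3gal4 (7.05, others 7.92 to 8.00) and Pdk3 (10.70, others 10.98 to 10.99). For Ugt8a, Moxd1 and C1ql1 the outlying sample was less than 0.2 from the rest, because the others were almost equal.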

How the results depend on the processing

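The 54 lower and 9 higher genes became 16 and 41 with median centring, 24 and 18 with quantile normalization, 97 and 23 at a threshold of 0.3, 18 and 4 at 0.6, and 176 and 51 with none. Brighter genes alone gave 24 lower genes and the same 9 higher ones. Leaving out 1 sample gave 54 to 719 lower and 20 to 95 higher genes, and leaving out wild-type replicates 1 and 3, chosen after the data were seen, gave 112 and 141. Without those 2 the naming schemes differed in 41 genes and the interaction in 1. For the schemes, 4 genes became 0 among brighter genes and 0 to 18 with 1 sample left out: 12 and 18 without knockout replicates 1 and 2, 1 and 7 without 3 and 4, 10 and 14 without wild-type replicates 1 and 3, and 0 without 2 or 4. For the interaction, 6 genes became 0 among brighter genes and 6 to 38 with 1 sample left out: 13, 13, 19 and 19 without knockout replicates 1 to 4 and 6, 38, 9 and 11 without wild-type replicates 1 to 4. In these fits a lone sample is assumed to vary like the others. Of 819 recomputed differences of single members, 793 moved by less than 1 SD between replicates and 26 by more. Complete separation and the 0.4 limit fix the sign of nearly all of them. No paired analysis was possible because the sample titles give no replicate number that the genotypes share. Below the array median, where 32 lower genes had all knockout signals, background limits what a difference shows.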
